A study of Arabidopsis thaliana with 4 samples.

Results

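The mitochondrial genome transcripts of the Arabidopsis thaliana root are the rows of the gene tables whose code starts with ATMG, the prefix of genes carried by the mitochondrial genome. Each of the 4 tables held 152 such rows among 32834, and the 114 rows with at least 1 unique molecular identifier (UMI) in any library are the members described here. A UMI tags 1 captured RNA molecule, so the values are counts of molecules per gene and cell barcode. In the single libraries, 101, 104, 104 and 107 of these rows had a UMI.

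The mitochondrial genome of plants encodes ribosomal RNAs, transfer RNAs, some ribosomal proteins, proteins that mature cytochrome c and a small set of subunits of the respiratory chain and of the ATP synthase. The remaining subunits are nuclear genes whose proteins are imported. Plant mitochondrial transcripts carry no stable poly(A) tail, and a short tail marks them for decay, whereas the libraries here were primed on poly(A). In Arabidopsis a large piece of the mitochondrial genome has also been copied into chromosome 2, so that many mitochondrial genes have a near-identical nuclear row.

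The libraries came from roots of 4 diploid transgenic lines, named pWER:GFP, pCORTEX:GFP, enhancer trap PET111 and last pSCR:GFP, with 1 library per line. In line pWER:GFP, line pCORTEX:GFP and line pSCR:GFP, a promoter drives GFP, and line PET111 is an enhancer trap line whose table holds a YFP row. Tips of primary roots were taken 4 to 5 days after germination, digested for 1 hour to protoplasts and put through the 10x Chromium 3′ kit, version 3.1. Each line is its own batch in the labels, batch 1 to 4 in the order given (batch order below), and the effects of line and of batch cannot be told apart. With 1 library per line there is no replicate check anywhere below, no test was made, and intervals cover counting error only. The labels name the tissue as root with various cell types, and clusters with markers of hair cells, root cap, endodermis, xylem and phloem were found in every library. The 4 tables held 9745 to 11731 barcodes and 160953229 to 306361336 UMIs per library, with a median of 1943 to 6303 UMIs per barcode and a minimum of 525 to 716. Between 27 and 35 barcode sequences were shared by any pair of libraries.

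Mitochondrial rows took a small share of each library and a much larger share of some barcodes. They held 1.33% of all UMIs in line pWER:GFP, 1.44% in line pCORTEX:GFP, 2.61% in line PET111 and 2.02% in line pSCR:GFP, with exact Clopper-Pearson 95% intervals of 1.325 to 1.328% in the first of these and 2.612 to 2.617% in line PET111. The median over barcodes was higher than the summed share in every library, at 3.06%, 2.60%, 6.92% and 3.58% in the same order. PET111 was thus the highest on both measures, and pWER:GFP the lowest on the summed share but not on the median. Single barcodes reached 87.4%, 95.7%, 97.4% and 83.9%. Almost no barcode lacked these transcripts, with 5, 5, 3 and 10 barcodes at 0 ATMG UMIs.

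Detection depended on depth, so every barcode was also thinned to 1000 UMIs. At that depth 96.2% of 9514 barcodes in line pWER:GFP, 95.7% of 10565 in line pCORTEX:GFP, 97.6% of 7733 in line PET111 and 97.4% of 10447 in line pSCR:GFP kept an ATMG UMI. The unthinned shares were 99.95%, 99.96%, 99.97% and 99.91%, and 299, 1166, 2012 and 87 shallower barcodes had been left out of the thinned values. Every root cell type holds mitochondria, so there is no class that should lack these transcripts and could measure free RNA in the droplets.

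One row outweighed the rest together. ATMG00020 held 82.3% of the ATMG UMIs in line pWER:GFP, 79.1% in line pCORTEX:GFP, 76.3% in line PET111 and 82.9% in line pSCR:GFP. ATMG01390 came next with 202452, 509771, 681760 and 250146 UMIs, and ATMG00020 exceeded it by a factor of 11.3, 6.84, 4.79 and 10.8. All other ATMG rows together held 10.4%, 9.34%, 7.83% and 9.41%. The reference annotation gives these 2 codes no name, and they are called by code here. The gene list used here counts both as ribosomal RNA, with ATMG01380 as a further such row. Most ATMG UMIs were thus from ribosomal RNA rows, and results on the ATMG sum speak mainly for these. Counts are per row and not per length, so a ratio of 2 rows is a ratio of captured molecules and not of transcript levels. After thinning, ATMG00020 was seen in 94.6%, 93.6%, 96.4% and 96.4% of barcodes and ATMG01390 in 73.6%, 75.2%, 89.1% and 78.0%, whereas no other row among the 10 with the most UMIs passed 33.4%.

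**Figure D1:**
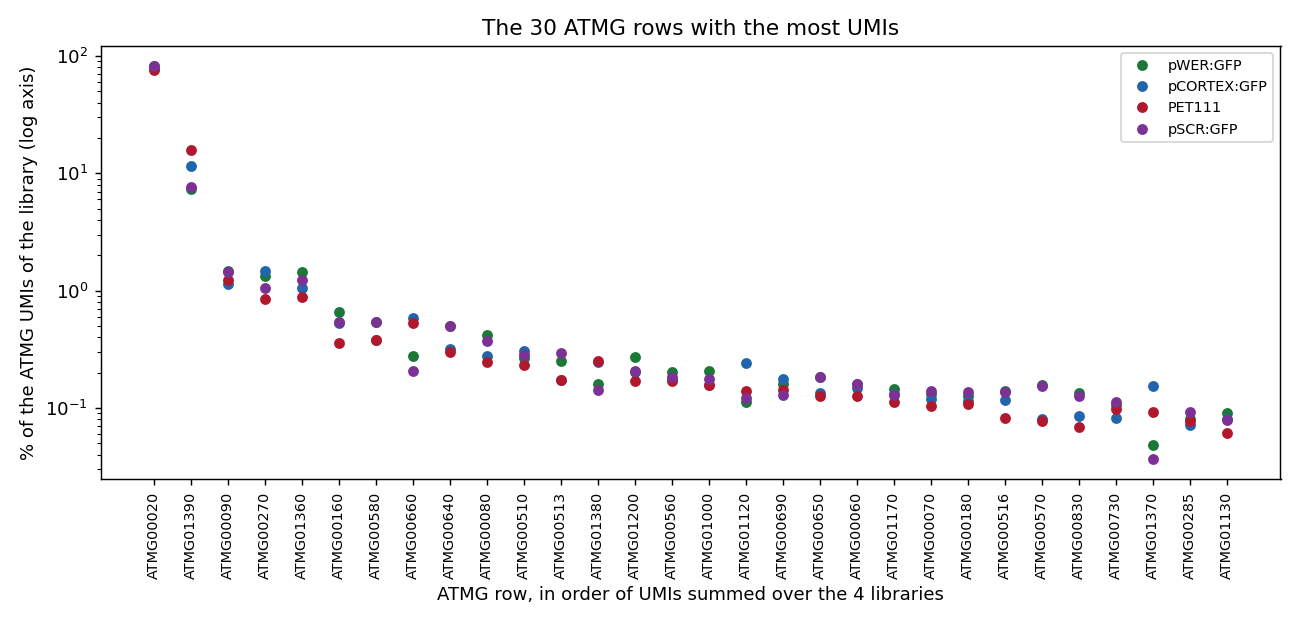
Share of the ATMG UMIs of each library (log axis) held by each of the 30 ATMG rows with the most UMIs, 1 point per library. ATMG00020 stands near 80% in all 4 libraries, ATMG01390 lies 4.79-fold to 11.3-fold below it, and every further row is below 2%.

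Below the leading pair the order was similar between libraries. ATMG00090 had 40497 UMIs in line pWER:GFP, 50768 in line pCORTEX:GFP, 52469 in line PET111 and 46659 in line pSCR:GFP. ATMG01360 had 40104, 46489, 37711 and 39968 UMIs, and ATMG00270 had 37159, 64499, 36285 and 34474. ATMG00160, ATMG00580 and ATMG00640 were also among the leading 10 rows of every library, and ATMG00660, ATMG00080, ATMG00510, ATMG01380 or ATMG00513 filled the other places. The leading 10 rows held 96.3%, 96.5%, 96.9% and 96.6% of the ATMG UMIs. At the other end, 9, 10, 12 and 17 rows rested on 1 to 3 UMIs in a whole library, and 51, 48, 48 and 45 rows were at 0.

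Members that the annotation names through a nuclear counterpart were at modest counts. ATMG00730, cytochrome c oxidase subunit 3 of the terminal oxidase, had 2949, 3634, 4181 and 3636 UMIs in the 4 lines, in batch order. ATMG01320, annotated as NADH dehydrogenase 2B, is listed here as 1 of the parts of gene nad2 and had 1872, 2346, 2241 and 2358 UMIs. The NADH dehydrogenase feeds electrons into the chain, and ATMG00990, its subunit 3, had 367, 195, 156 and 283. Of the ATP synthase, ATMG01080 (subunit 9, the ring of the proton channel) had 2565, 3009, 3162 and 1937 UMIs. ATMG01190 (subunit 1, part of the catalytic head) had 799, 975, 813 and 853, and ATMG00410 (subunit 6-1, next to the ring) had 1584, 1943, 1526 and 1432. ATMG00180, cytochrome C biogenesis 452, had 3510, 5038, 4652 and 4411 UMIs. ATMG00220, apocytochrome b of the cytochrome bc1 complex, and ATMG00210, ribosomal protein L5, were nearly absent under their ATMG codes, with 0 or 1 UMI in every library.

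Some minor rows differed between libraries far more than the rest. To set the leading pair aside, each row was taken as a share of the ATMG UMIs outside ATMG00020 and ATMG01390, over 45 rows with at least 100 UMIs in every library. The highest library was under 1.5-fold above the lowest for 30 of these 45 rows and at least 2-fold above it for 10, with a median ratio of 1.42. ATMG00660 took 2.71% in line pWER:GFP, 6.26% in line pCORTEX:GFP, 6.72% in line PET111 and 2.21% in line pSCR:GFP. ATMG01370 took 0.467%, 1.64%, 1.18% and 0.390%, and ATMG00040 took 0.0474%, 0.319%, 0.244% and 0.0370%. ATMG00630 ran the other way, with 0.352%, 0.0906%, 0.112% and 0.355%. In each of these rows pWER:GFP and pSCR:GFP lay close together and apart from pCORTEX:GFP and PET111. ATMG01390 was split the same way, with 7.30% and 7.71% of all ATMG UMIs in line pWER:GFP and pSCR:GFP against 11.6% and 15.9% in line pCORTEX:GFP and PET111. Each library is also a batch, and these rows were picked after their values were seen.

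The share of mitochondrial UMIs was tied to depth. It was highest at 2000 to 5000 UMIs per barcode and lowest in the deepest barcodes. In line pWER:GFP the summed ATMG share was 2.97%, 6.98%, 10.1%, 5.73%, 2.35%, 1.43% and 0.256% in barcodes of 500 to 1000, 1000 to 2000, 2000 to 5000, 5000 to 10000, 10000 to 20000, 20000 to 50000 and at least 50000 UMIs. The same ranges gave 4.96%, 13.2%, 14.0%, 5.78%, 3.30%, 1.86% and 0.353% in line pCORTEX:GFP. They gave 9.76%, 11.1%, 30.3%, 10.0%, 4.77%, 2.44% and 0.394% in line PET111, and 2.20%, 4.77%, 11.8%, 6.51%, 2.41%, 1.27% and 0.222% in line pSCR:GFP. Barcodes under 2000 UMIs thus had a share 14.8-fold, 18.5-fold, 14.6-fold and 9.79-fold that of barcodes of at least 20000.

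From 5000 UMIs upward, the amount behind these shares changed less than the shares. The median barcode held 241, 256, 411 and 285 ATMG UMIs at 5000 to 10000 UMIs in the 4 lines, in batch order. It held 256, 420, 534.5 and 244 at 20000 to 50000 UMIs, and 197.5, 297, 318 and 158 at 50000 UMIs and over. Total UMIs rose at least 5-fold between the first and the last of these ranges, while median ATMG UMIs stayed within a factor of 2. Below 5000 UMIs the amount rose with depth in every library. The median was 23, 32, 78 and 13 ATMG UMIs at 500 to 1000 UMIs. At 2000 to 5000 UMIs it was 138, 145, 556.5 and 194. Within a range, barcodes differed by far more than counting error. At 10000 to 20000 UMIs the standard deviation of the share was 2.54, 4.18, 5.31 and 2.90 percentage points, or 19.7, 27.3, 28.9 and 22.1 times what counting alone would give.

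**Figure D2:**
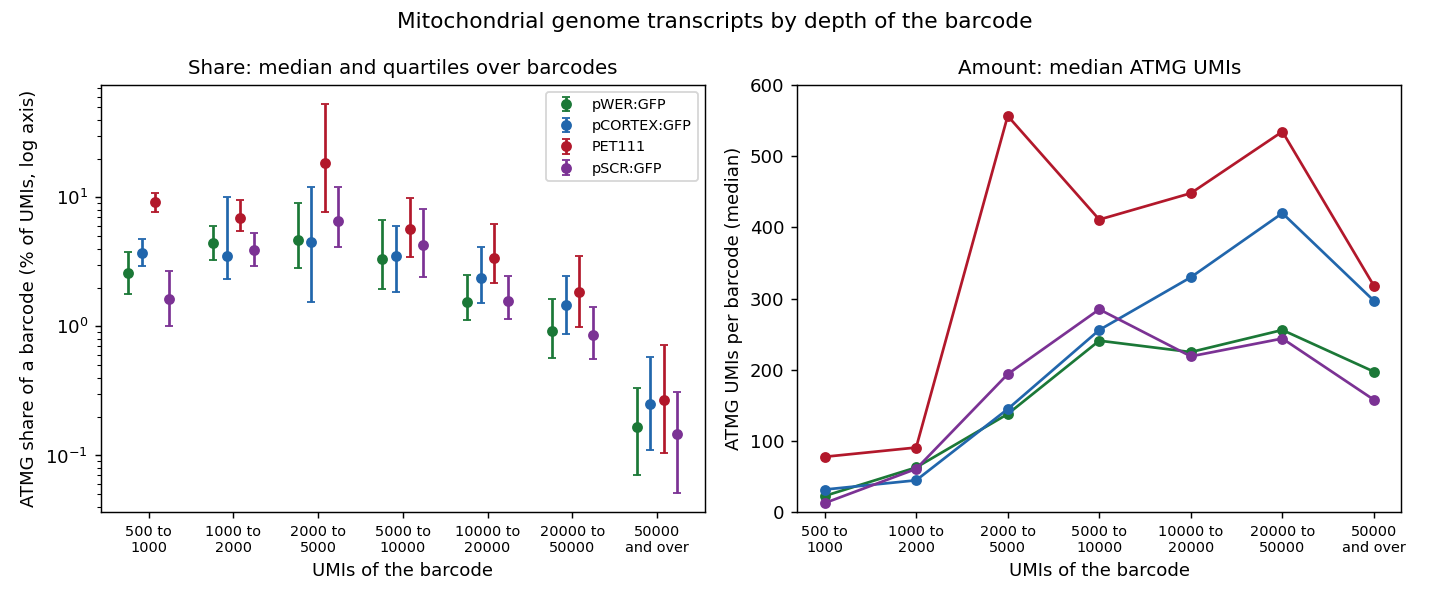
ATMG share of a barcode (left, % of UMIs, log axis, median with quartiles over barcodes) and median ATMG UMIs per barcode (right), by UMIs of the barcode, for 4 libraries. The share falls in every library above 5000 UMIs, to medians of 0.15 to 0.27% at 50000 UMIs and over, while the median number of ATMG UMIs stays between 158 and 534.5 there.

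The depth contrast was shared by most mitochondrial rows that could be measured. Counted as CPM of nuclear UMIs, ATMG00020 had 61509, 99699, 93591 and 42186 CPM in barcodes under 2000 UMIs of the 4 lines, in batch order. In barcodes of at least 20000 it had 3507, 4749, 5579 and 3776, a log2 ratio of 4.13, 4.39, 4.07 and 3.48 after adding 5 to both sides. ATMG01390 moved further in each library, with log2 ratios of 4.87, 5.24, 4.57 and 4.14. ATMG00630 had 0.92, 0.63, 0.49 and 0.73, and ATMG00990 (NADH dehydrogenase 3) had 0.35, 0.47, 0.34 and 0.18. Both rows were rare, with 1010, 373, 377 and 1084 UMIs for ATMG00630 and 367, 195, 156 and 283 for ATMG00990. The 5 added to both sides pulls the ratios of such rows toward 0, so their small values do not show a weaker tie to depth.

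Of members with at least 100 UMIs in a library, 34 of 47 in line pWER:GFP, 43 of 49 in line pCORTEX:GFP, 40 of 49 in line PET111 and 33 of 47 in line pSCR:GFP were at least 2-fold higher in the shallow barcodes. Among all rows with as many UMIs, 4.76%, 8.12%, 4.69% and 4.76% were. In the other direction no member was 2-fold lower, against 1.5%, 1.99%, 2.57% and 1.35% of all rows. With 5 CPM added to both sides, a row under 5 CPM in the deep barcodes could not be called lower. Such a row also needed more than a 2-fold change to be called higher, so these counts say little about rare members. The UMI minimum left out the other members seen in these libraries, and the counts do not speak for those. A nuclear rRNA row varied with the ATMG sum. AT3G41768, annotated as rRNA, had a Pearson r with the ATMG sum of 0.75, 0.68, 0.71 and 0.76 over all barcodes and of 0.15, 0.14, 0.33 and 0.25 within 10000 to 20000 UMIs. Its part in the result was not tested.

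Barcodes with a low share of mitochondrial UMIs also had a different make-up of them. In barcodes under 0.1% ATMG, ATMG00020 held 45.8%, 47.4%, 43.3% and 45.2% of the ATMG UMIs in the 4 lines, in batch order, from 410, 511, 226 and 311 barcodes. In barcodes of 1 to 2% it held 84.2%, 81.8%, 79.4% and 84.0%. The rows outside the leading pair took the difference, with 48.4%, 40.7%, 45.3% and 49.1% under 0.1% and 10.1%, 9.90%, 9.97% and 10.2% at 1 to 2%. These ranges were set by the ATMG sum, of which ATMG00020 is the largest part, so part of this shift is built in. With barcodes ranged by depth instead, ATMG00020 held 71.3%, 74.6%, 72.0% and 70.0% at 50000 UMIs and over. At 10000 to 20000 UMIs it held 84.4%, 82.1%, 78.3% and 83.9%. Barcodes over 50% ATMG stood apart through ATMG01390. It held 12.4%, 20.2%, 22.9% and 12.9% of their ATMG UMIs, against 5.64%, 8.29%, 10.6% and 5.76% in barcodes of 1 to 2%. The low-share barcodes were deep, with a median of 121749 to 157754 UMIs, so that share, depth and make-up moved together.

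**Figure D3:**
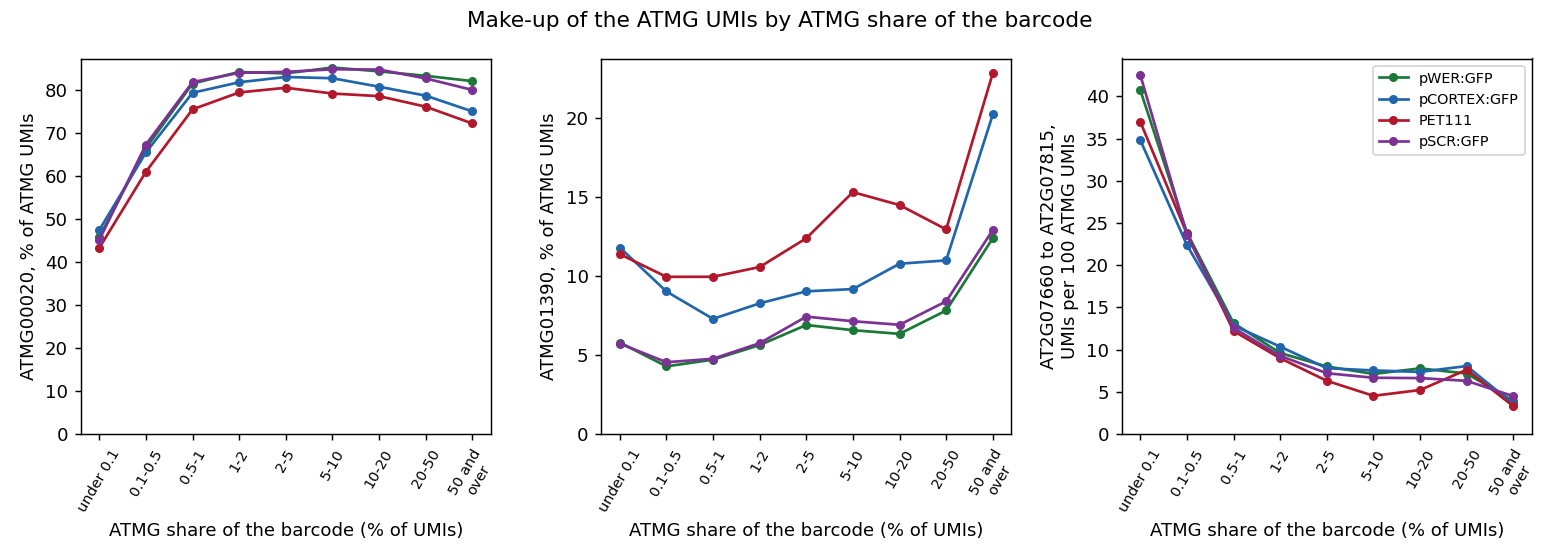
Make-up of the ATMG UMIs by ATMG share of the barcode (% of UMIs, 9 ranges) in 4 libraries. The ranges are set by the ATMG sum, which is also the denominator of each value. Left, ATMG00020 as % of ATMG UMIs is below 50% in the barcodes of lowest share and above 70% from 0.5% upward. Middle, ATMG01390 is highest in barcodes of 50% and over. Right, UMIs of rows AT2G07660 to AT2G07815 per 100 ATMG UMIs fall from 34.8 to 42.5 in the lowest range to 3.32 to 4.50 in the highest.

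Barcodes rich in mitochondrial transcripts were a minority that held much of the signal. Those over 10% ATMG were 10.2% of barcodes in line pWER:GFP (exact interval 9.57 to 10.8%), 12.5% in line pCORTEX:GFP, 27.2% in line PET111 and 13.6% in line pSCR:GFP. They held 34.5%, 36.1%, 53.7% and 41.0% of the ATMG UMIs. Their median depth was 2768, 2288.5, 1877 and 3301 UMIs. Over 50% ATMG there were 201, 480, 456 and 168 barcodes, with 15.1%, 21.1%, 26.8% and 11.98% of the ATMG UMIs. The 1% of barcodes with the most ATMG UMIs held 9.93 to 11.4% of them.

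At a matched range of 1000 to 5000 nuclear UMIs, barcodes over 10% ATMG were low in transcripts of developing xylem. The xylem list was picked out after the values of all marker lists had been seen. Those with at least 100 UMIs, 7 of the 9 listed, were 2-fold or more lower in the mitochondria-rich barcodes for 7 of 7 in line pWER:GFP, 3 of 7 in line pCORTEX:GFP, 5 of 7 in line PET111 and 7 of 7 in line pSCR:GFP, against 0.947%, 1.2%, 1.16% and 1.1% of nuclear genes. In the other direction 1.64%, 4.23%, 6.59% and 0.342% of nuclear genes, and none of these markers, were 2-fold or more higher. The median log2 ratio of these markers, rich over other barcodes, was -1.46, -0.95, -1.34 and -2.44, and that of all nuclear genes was 0.01, 0.10, 0.14 and 0.02. XCP1, a protease of tracheary elements, had 21.3 CPM in 716 rich barcodes of line pWER:GFP, against 121 CPM in 4240 other barcodes. In line pCORTEX:GFP it had 43.2 CPM in 642 rich barcodes, against 120 CPM in 3006 others, and in line PET111 40.9 CPM in 1009 rich barcodes, against 180.3 CPM in 2473 others. In line pSCR:GFP it had 14.5 CPM in 1250 rich barcodes, against 149 CPM in 4528 others. Hair cell markers lay above the nuclear median, with medians of 0.90, 0.62, 0.59 and 0.53 on the log2 scale. Markers of the endodermis went different ways, with medians of -0.71, 0.01, 0.75 and -1.35. The median nuclear depth of the rich and the other barcodes was 1852 and 1977 UMIs in line pWER:GFP, 1927.5 and 1973 in line pCORTEX:GFP, 1784 and 1336 in line PET111, and 2245.5 and 1994.5 in line pSCR:GFP.

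Mitochondrial rows varied together across barcodes. Over members with a UMI in at least 1% of barcodes (47, 49, 49 and 46 rows), the median Pearson r of pairs was 0.34 in line pWER:GFP, 0.36 in line pCORTEX:GFP, 0.43 in line PET111 and 0.35 in line pSCR:GFP, on ln(1 + UMIs per 10000 nuclear UMIs). All 1081 pairs of line pWER:GFP, 1176 of line pCORTEX:GFP and 1035 of line pSCR:GFP were positive, as were 1175 of the 1176 pairs of line PET111. The pairs share barcodes and a denominator, and r grows with the UMIs of a row, so weak values say little about a rare row. ATMG00020 and ATMG01390 formed the closest pair in each library, with r of 0.91, 0.93, 0.96 and 0.91. Within barcodes of 10000 to 20000 UMIs, which takes out most of the depth range, this pair had r of 0.83, 0.88, 0.92 and 0.84.

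Rows outside the leading pair also moved with each other. ATMG00090 and ATMG00580 had r of 0.65 in line pWER:GFP, 0.77 in line pCORTEX:GFP, 0.82 in line PET111 and 0.63 in line pSCR:GFP. ATMG00090 and ATMG00270 had 0.61, 0.77, 0.80 and 0.60. Against the sum of all other ATMG rows within 10000 to 20000 UMIs, ATMG00270 reached 0.74, 0.77, 0.76 and 0.74, whereas ATMG00990 (NADH dehydrogenase 3) had 0.18, 0.10, 0.19 and 0.16. In that range the median over pairs was 0.35, 0.27, 0.45 and 0.39. Plastid genome transcripts, summed, had r with the ATMG sum of 0.35, 0.58, 0.54 and 0.35 over all barcodes and of 0.66, 0.64, 0.69 and 0.66 within 10000 to 20000 UMIs.

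Most of the nuclear rows that followed the ATMG sum closely were its counterparts on chromosome 2. The nuclear code range AT2G07660 to AT2G07815 held 9 of the 10 highest r values in every library, and the other was the rRNA row AT3G41768, which ranked first over all barcodes in every line but pCORTEX:GFP, where AT2G07671 did. AT2G07671, whose annotation matches it to ATMG01080, had r of 0.68 in line pWER:GFP, 0.72 in line pCORTEX:GFP, 0.58 in line PET111 and 0.68 in line pSCR:GFP. AT2G07727, matched to the apocytochrome b row ATMG00220, had 0.55, 0.67, 0.59 and 0.58. Summed, the code range had r of 0.73, 0.74, 0.59 and 0.77 over all barcodes, and of 0.85, 0.87, 0.86 and 0.87 within 10000 to 20000 UMIs. The lowest r values were weak and belonged to nuclear genes such as ISU1 and SEC61 BETA. ISU1, an iron-sulfur scaffold protein of mitochondria, had -0.29 in line pWER:GFP and -0.30 in line pSCR:GFP. Within 10000 to 20000 UMIs it had -0.40 and -0.37 in these lines. SEC61 BETA, of the protein channel of the endoplasmic reticulum, had -0.39 in line pCORTEX:GFP and -0.39 in line PET111. Within 10000 to 20000 UMIs it had -0.23 in both.

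Position on the chromosome set the same rows apart. RefSeq matches 46 chromosome 2 genes to 45 ATMG codes. The stretch taken here runs from the first of these 46 genes to the last in its gene order, AT2G07771 to AT2G07741. Its ends were thus set by the matched genes, and it spans 180 genes, of which the tables held 123. Every row of this stretch with a UMI in at least 1% of barcodes had a positive r with the ATMG sum, 33 of 33 in line pWER:GFP, 38 of 38 in line pCORTEX:GFP, 43 of 43 in line PET111 and 34 of 34 in line pSCR:GFP. Of all other nuclear rows, 12.5%, 16.1%, 5.99% and 18.5% did. The stretch also held 43 rows outside the code range, which had been counted as ordinary nuclear genes. AT2G05215, an lncRNA among them, had r of 0.29, 0.36, 0.38 and 0.34 with only 780, 1381, 1346 and 1148 UMIs. At 1000 to 5000 nuclear UMIs it had 112, 113, 139 and 185 CPM in barcodes over 10% ATMG, against 6.99, 4.35, 4.47 and 10.1 CPM in the others.

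For most pairs the nuclear row carried the larger count. The chromosome 2 row had more UMIs than its ATMG row in 34, 34, 35 and 34 of 46 pairs of the 4 lines, in batch order. The ATMG row had more in 9, 8, 8 and 7. No minimum count was set, and some of these pairs rested on few UMIs and show no direction. In line pWER:GFP, for example, ATMG00550 had 0 UMIs and AT2G07714 had 1. AT2G07671 had 107107, 205643, 108347 and 98217 UMIs, against 2565, 3009, 3162 and 1937 for ATMG01080. AT2G07725 had 31394, 32866, 31804 and 31688 UMIs, against 0, 1, 1 and 1 for ATMG00210, ribosomal protein L5. AT2G07698 had 25304, 37726, 33358 and 31393 UMIs, against 799, 975, 813 and 853 for ATMG01190, ATP synthase subunit 1. ATMG00410, ATPase subunit 6-1, was the opposite, since AT2G07741 had 0 UMIs in all 4 libraries. A count of 0 in a library allows up to 3 UMIs. ATMG01320, NADH dehydrogenase 2B, had 1872, 2346, 2241 and 2358 UMIs, and AT2G07689 had 68, 97, 112 and 75. How reads that match both copies were assigned is not given in the sources used here, so the split of a pair between genomes is uncertain, and so is the level of every member that has such a copy.

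**Figure D4:**
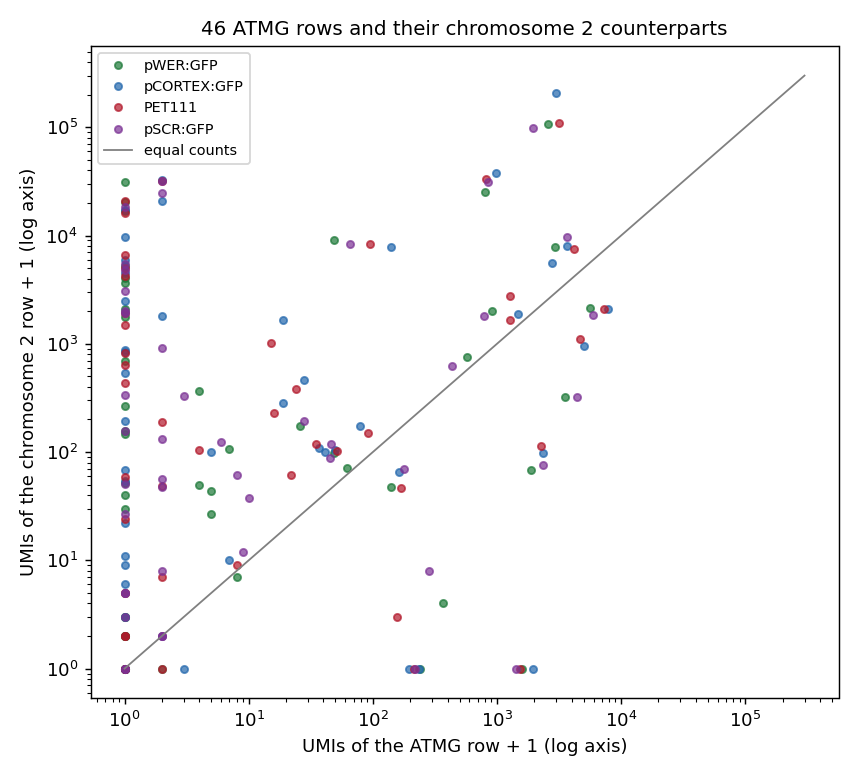
UMIs of ATMG rows and of the chromosome 2 rows annotated as matching them, in 46 pairs of 45 ATMG codes, both plus 1 on log axes, 1 point per pair and library. Points above the grey line of equal counts, 34 or 35 of 46 in each library, have more UMIs on the chromosome 2 row. Pairs with few UMIs are included.

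With these rows added, the mitochondrial share of UMIs would be 1.44%, 1.56%, 2.77% and 2.17% in place of 1.33%, 1.44%, 2.61% and 2.02%. The code range had 8.84, 8.54, 6.13 and 7.69 UMIs per 100 ATMG UMIs. This ratio was 40.8, 34.8, 36.98 and 42.5 in barcodes under 0.1% ATMG and 3.93, 3.58, 3.32 and 4.50 in those over 50%. Its denominator, the ATMG sum, also set these ranges, so part of the fall is built in. By depth it was 18.8, 15.5, 13.9 and 20.0 at 50000 UMIs and over. At 10000 to 20000 UMIs it was 9.11, 8.32, 6.72 and 8.71. The ratio moved in the same direction as the minor ATMG rows, which also took a larger part of the ATMG UMIs in barcodes of low share.

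Nuclear genes for mitochondrial proteins had mostly negative r with the ATMG sum over all barcodes, and part of them turned positive at matched depth. The 22 listed genes of the respiratory chain and the ATP synthase had a median r of -0.16, -0.23, -0.18 and -0.14 in the 4 lines, in batch order, against -0.04, -0.03, -0.05 and -0.03 for all nuclear genes. The listed genes had a UMI in 19.4 to 93.1% of barcodes, whereas all nuclear genes seen in at least 1% entered the comparison. Detection was not matched, and r grows with the UMIs of a row. The gap therefore cannot be read as a trait of genes for mitochondrial proteins. CYTC-1, cytochrome c, had -0.17, -0.31, -0.30 and -0.14. Within 10000 to 20000 UMIs the list median was -0.03, -0.06, -0.09 and -0.07, against 0.02, 0.00, 0.02 and 0.01 for all nuclear genes. SDH1-1, a subunit of succinate dehydrogenase, had 0.24, 0.07, 0.04 and 0.21 there. The other listed genes of that enzyme did not follow it. SDH2-1 had -0.13, 0.03, -0.10 and -0.15 in the same range, and SDH2-2 had -0.14, -0.02, -0.08 and -0.17. The 6 genes of import and chaperones had -0.13, -0.24, -0.17 and -0.10, with VDAC1, a pore of the outer membrane, at -0.19, -0.31, -0.22 and -0.13. Within 10000 to 20000 UMIs the median of these 6 genes was 0.08, -0.02, -0.01 and 0.03, so that its sign turned in line pWER:GFP and line pSCR:GFP. VDAC1 had 0.08, -0.12, -0.12 and 0.04 in that range, and the chaperone mtHsc70-1 had 0.27, 0.04, 0.13 and 0.30. The 7, 6, 6 and 7 measured genes of the mitochondrial stress response lay near 0, with medians of -0.05, -0.03, -0.07 and -0.03. AOX1A, the alternative oxidase, had -0.17, -0.06, -0.11 and -0.15. Within 10000 to 20000 UMIs the medians of the list were -0.01, 0.02, 0.00 and -0.01, whereas AOX1A had -0.28, 0.03, -0.05 and -0.23. The 3 genes of mitochondrial RNA synthesis and decay had medians of -0.02, -0.03, -0.02 and 0.01 over all barcodes, and of 0.07, 0.01, 0.11 and 0.12 within 10000 to 20000 UMIs. Rows of the code range AT2G07660 to AT2G07815 had medians of 0.27, 0.24, 0.24 and 0.28.

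Cell classes differed in mitochondrial share, and their order changed with depth. Clusters were named from marker genes, and 52.0 to 53.9% of barcodes per library stayed in unnamed clusters, which held 43.2 to 55.9% of the ATMG UMIs. Over all depths, root cap-like barcodes had a summed share of 1.92%, 3.02%, 5.18% and 1.89% in the 4 lines, in batch order, and hair cell-like barcodes had 0.911%, 1.12%, 2.24% and 1.34%. At 10000 to 20000 UMIs, a range chosen after seeing the data, the order was the other way. There the median was 3.44%, 3.04%, 6.19% and 4.72% in 28, 35, 20 and 51 hair cell-like barcodes and 1.44%, 2.13%, 3.06% and 1.39% in 811, 757, 434 and 1029 root cap-like barcodes. The quartile ranges of the 2 classes overlapped in line pWER:GFP (1.43 to 5.83% against 1.09 to 2.00%), line pCORTEX:GFP (1.83 to 5.80% against 1.51 to 3.18%) and line PET111 (0.197 to 11.8% against 2.20 to 4.50%), and were apart in line pSCR:GFP (1.92 to 8.87% against 1.08 to 1.83%). At 5000 to 10000 UMIs the hair cell-like median was again the higher, with 4.75%, 8.55%, 10.5% and 7.79% against 3.04%, 3.17%, 4.87% and 2.63%. At 2000 to 5000 UMIs the medians lay closer, with 7.78%, 7.22%, 11.6% and 8.29% in hair cell-like and 7.08%, 6.07%, 11.7% and 8.42% in root cap-like barcodes, and the root cap-like one was the higher in line PET111 and line pSCR:GFP. Root cap-like barcodes were not alike between libraries. SMB, NAC015, NAC070 and CEL5 were above the other barcodes in each library. CEL5 had 26.2 and 30.5 CPM in line pWER:GFP and line pSCR:GFP, against 475 and 426 CPM in line pCORTEX:GFP and line PET111. AT1G17400 was below the other barcodes in line pWER:GFP and line pSCR:GFP, and FEZ in line pSCR:GFP.

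Non-hair cell-like barcodes, of the other cell type of the epidermis, were also above the root cap-like ones at the greater depth. Their median at 10000 to 20000 UMIs was 3.35%, 4.83%, 5.56% and 6.50%, from 41, 109, 140 and 30 barcodes, and exceeded the root cap-like median in each library. At 2000 to 5000 UMIs it was 8.29%, 4.22%, 9.55% and 7.89%, below the root cap-like median in all lines but pWER:GFP. At 10000 to 20000 UMIs, cortex-like barcodes had 3.44%, 3.20%, 4.21% and 3.02%, and endodermis-like ones 2.45%, 2.33%, 3.15% and 2.04%. In that range phloem-like barcodes had 1.31% in line pWER:GFP and 1.46% in line pSCR:GFP. Xylem-like ones had 2.24% in line pCORTEX:GFP and 3.05% in line PET111. The stele-like class did not keep a place in that range, with 1.93% in line pCORTEX:GFP, 7.02% in line PET111 and 1.26% in line pSCR:GFP. The name covered unlike sets of cells. SHR was higher than in the other barcodes in all 3 libraries and WOL lower, whereas PHO1 was higher in line pSCR:GFP alone (28.1 CPM against 2.70 CPM) and HP6 in line pCORTEX:GFP and line PET111 (13.7 against 1.09 CPM and 14.0 against 0.143 CPM).

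**Figure D5:**
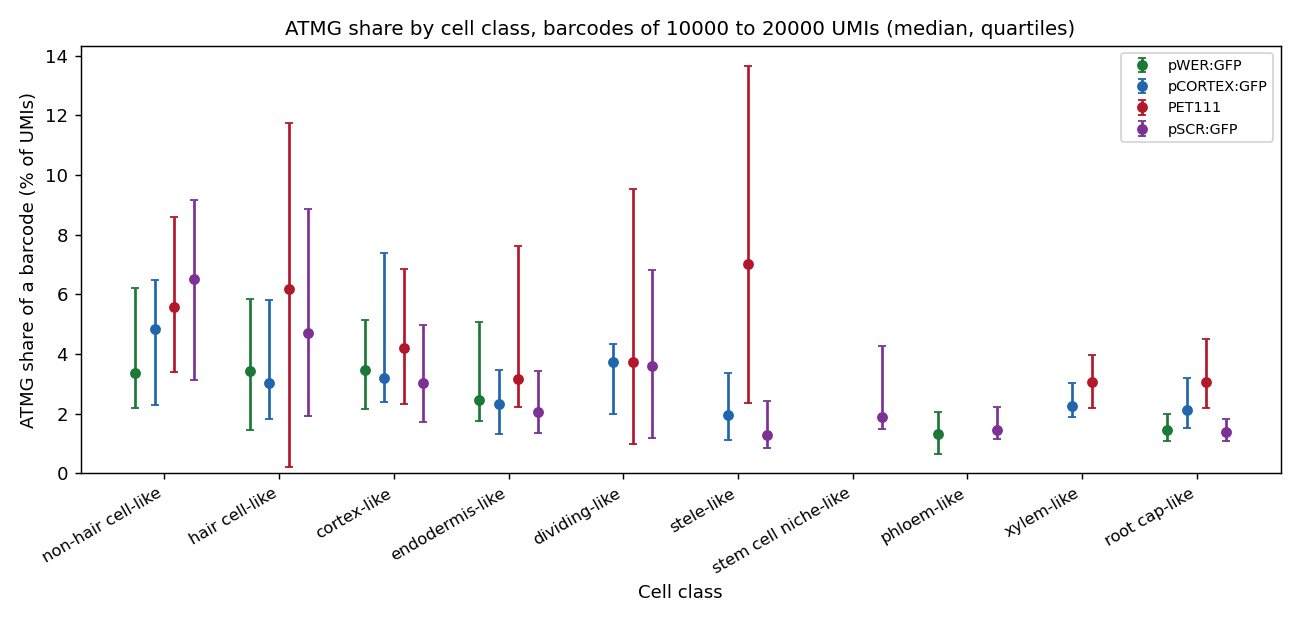
ATMG share of barcodes with 10000 to 20000 UMIs by cell class (median with quartiles, % of UMIs) in 4 libraries, for classes of at least 20 such barcodes. Hair cell-like and non-hair cell-like medians, 3.04 to 6.50%, are above the root cap-like median of the same library in all 4, and many quartile ranges overlap.

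Clusters of 1 class could differ, as the dividing cells of line pCORTEX:GFP did. In line pCORTEX:GFP 1 dividing-like cluster of 162 barcodes had a median ATMG share of 0.274% at a median depth of 5072.5 UMIs. The other dividing-like cluster, of 127 barcodes, had 1.22% at 32440 UMIs, although shares fell with depth in the library as a whole. By summed UMIs the order was the other way, with 1.54% in the cluster of 162 barcodes and 0.681% in that of 127. The shallower of the 2 held the rRNA row AT3G41768 among its 10 leading genes. Across named classes ATMG00020 held between 77.2% (dividing-like) and 85.2% (root cap-like) of the ATMG UMIs in line pWER:GFP, and in line PET111 it held between 69.7% (dividing-like) and 80.2% (root cap-like). Several clusters bear on how far the names can be read. FMO1, an immune gene, was among the 10 leading genes of 1 root cap-like cluster in each library, and 1 root cap-like cluster of 62 barcodes in line pSCR:GFP was led by histone genes. In line PET111 an unnamed cluster of 181 barcodes with an ATMG share of 61.7% had rows of the chromosome 2 stretch as its 10 leading genes.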

How the data were processed

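Counts, whole numbers of UMIs per gene and barcode with no normalization, were used as deposited. Cell Ranger 7.1.0 and Seurat are named in the submitters' processing notes; genome build, annotation and cell filter are not given in the sources used here, so no coordinates or sequences are printed. All barcodes were used, and no doublets were removed. Symbols came from RefSeq TAIR10.1, which matched 32548 of 32834 rows and 0 of 152 ATMG rows; 45 ATMG codes took a description from its protein match notes on chromosome 2 genes.

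Correlations are Pearson r across the barcodes of 1 library on ln(1 + UMIs per 10000 nuclear UMIs). Ratios between sets of barcodes are log2 of CPM of nuclear UMIs, with 5 added to both sides, for genes with at least 100 UMIs. Each library was clustered on its own (leidenalg 0.10.2, resolution 1, 2000 variable genes, 30 components, 15 neighbours) without ATMG, plastid, AT2G07660 to AT2G07815 and reporter rows. The 43 rows of the chromosome 2 stretch outside that code range were not left out, so the clustering was not free of copies of mitochondrial sequence. A cluster was named "X-like" with at least 3 markers of a class 2-fold up, at least 10 UMIs each and a mean log2 fold of at least 0.5, unless its leading genes went against the name. Scripts were tested on simulated data. The members, gene lists and markers were chosen with earlier results of these data known. Named with values are the 10 members with most UMIs per library, the nuclear genes of highest and lowest r, and list members; other genes were chosen after their values were seen.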

Additional observations from a re-analysis of the deposited data

How the results depend on the processing

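Values are in the order pWER:GFP, pCORTEX:GFP, PET111, pSCR:GFP. No paired analysis was possible because each line had 1 library. The ATMG share of UMIs was 0.867%, 0.926%, 1.25% and 1.19% in barcodes with at most 10% organelle UMIs, 1.23%, 1.31%, 2.32% and 1.958% in barcodes of at least 2000 UMIs, 3.06%, 2.60%, 6.92% and 3.58% as the median over barcodes, 1.44%, 1.56%, 2.77% and 2.17% with AT2G07660 to AT2G07815 added, and 0.135%, 0.131%, 0.198% and 0.187% without ATMG00020, ATMG01390 and ATMG01380. ATMG00020 held 81.9%, 80.3%, 78.1% and 83.0% of ATMG UMIs under the 10% limit, 82.6%, 79.7%, 77.3% and 83.4% without the 1% of barcodes with most ATMG UMIs, and 82.4%, 78.4%, 77.2% and 82.8% as the mean over barcodes. The median r of pairs was 0.43, 0.35, 0.46 and 0.48 on raw UMIs, 0.25, 0.28, 0.34 and 0.27 per 10000 of all UMIs, 0.22, 0.21, 0.29 and 0.21 as Spearman's rho, 0.39, 0.26, 0.52 and 0.38 at 20000 UMIs and over, 0.44, 0.50, 0.58 and 0.41 for genes in at least 10% of barcodes, 0.16, 0.19, 0.24 and 0.16 after thinning to 1000 UMIs, and, a range chosen after seeing the data, 0.35, 0.27, 0.45 and 0.39 at 10000 to 20000 UMIs. The ratio of shares, under 2000 over at least 20000 UMIs, was 34.7, 39.9, 35.1 and 33.3 by nuclear UMIs, 9.67, 5.68, 9.38 and 8.72 under the 10% limit, and 10.3, 6.00, 9.86 and 7.38 from medians. The hair cell-like share was 0.910%, 1.11%, 2.24% and 1.30% at resolution 0.5, 0.917%, 0.904%, 2.28% and 1.31% at resolution 2, 0.584%, 0.535%, 1.48% and 0.616% under the 10% limit, and 4.06%, 4.91%, 6.15% and 5.70% at 10000 to 20000 UMIs. The root cap-like share was 1.81%, 2.61%, 4.66% and 2.09%, then 1.75%, 2.95%, 4.94% and 2.10%, then 1.73%, 2.41%, 3.31% and 1.68%, and 1.70%, 2.64%, 3.79% and 1.60% in the same 4 settings, so that of these settings the depth range alone turned the order of the 2 classes. The causes were not tested.

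Limits: 1 library per line, no replicates, line and batch inseparable. A small share in a deep barcode rests on few ATMG UMIs (medians of 158 to 318 at 50000 UMIs and over), and the rows shown beside the leading pair had a median of 0 UMIs after thinning. Free RNA, doublets and the assignment of reads shared with chromosome 2 were not measured.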
